A study of Mus musculus with 2 samples.

Results

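The 10 genes described here encode the subunits of the transcription factor NF-kB, its inhibitors and genes that CD40 signalling switches on as feedback. They are the 5 subunit genes Nfkb1, Nfkb2, Rel, Rela and Relb, the 2 inhibitor genes Nfkbia and Nfkbie, and the 3 feedback genes Tnfaip3, Traf1 and Birc3, out of 49591 annotated genes with reads. They were chosen by name, after earlier values of the same libraries had shown Tnfaip3 higher and Traf1 lower in S phase. Every ratio below is therefore a description of the chosen genes, with no test.

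The data come from END-seq of CD43-negative B cells purified from the spleens of mice aged 4 to 8 weeks, the method in which an adapter is ligated to broken DNA ends so that the first base of each read marks an end. One library (1 per group) came from activated cells in S phase, which had received anti-CD40 at 1 µg/mL together with IL-4 at 25 ng/mL during 24 to 28 h of culture, and the other from quiescent cells in G1 phase, cultured without them. The titles of both carry the prefix ATR+c, which the labels do not explain, and the labels used here name neither strain nor sex. Activation and cell cycle phase differ together between the groups, so their parts in a difference cannot be told apart.

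NF-kB proteins are held in the cytoplasm of resting B cells by IkB inhibitors. When CD40 is engaged, TRAF adaptors and cellular inhibitor of apoptosis proteins pass the signal to IkB kinases, the inhibitors are degraded or the precursors processed, and dimers of the subunits enter the nucleus. Several of the genes they then bind encode their own inhibitors and brakes, and the cycle limits itself. END-seq reads DNA ends and not RNA, so the values below are counts of break-end reads at these genes. They neither show expression of the genes nor check the identity of the cells by marker transcripts.

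In all, 21997695 reads covered 7752336 positions, strands apart, in the S-phase library, and the G1 library had 28933109 reads on 7538681 positions, or 2.84 and 3.84 reads per position. No molecular identifiers were given, so a stack of reads may stem from copying, and both reads and covered positions are reported. Reads were counted over each gene with 2 kb on both sides and scaled to the total on chromosomes 1 to 19. Ratios are S phase over G1 phase with an exact 95% interval for 2 Poisson counts, conditional on their sum. The intervals cover counting error only, and those on reads are too narrow where reads are stacked. Neither the spread between animals nor that between libraries can be given.

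Over the 10 genes together the S-phase library had more ends, with 3205 reads on 1092 positions against 3257 reads on 784 positions in the G1 library, a scaled ratio of reads of 1.29 (1.23 to 1.35). Of the 10 genes 4 had a ratio of at least 1.5, namely Tnfaip3, Nfkbie, Relb and Nfkb2, and 1, Traf1, a ratio of at most 1/1.5. The same rule, with at least 50 reads in a library, called 13.0% of 39224 genes higher and 8.85% lower, and 11.5% and 4.18% of 20298 protein-coding genes. Among the 16465 genes with summed reads in the range of these 10 it called 8.25% higher and 1.14% lower. The read interval lay above 1 in 7 genes and below 1 in 1, against 30.7% and 15.0% of all genes, 37.6% and 11.4% of protein-coding genes and 38.6% and 10.4% of genes in that range. The position interval lay above 1 in 5 genes and below 1 in 0, against 11.3% and 3.59% of all genes and 16.1% and 3.40% of genes in that range. The median log2 ratio of reads was 0.37 over the 10 genes, 0.11 over all genes and 0.14 over genes in that range. It was above 0 in 9 of the 10 genes, 60.4% of all genes and 68.8% of genes in that range, and nothing about the group is read from these counts because the same ratios entered its choice. Without Tnfaip3 and Traf1 the median of the other 8 genes was also 0.37. That follows of necessity, because these genes hold the highest and the lowest ratio of the 10.

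**Figure D1:**
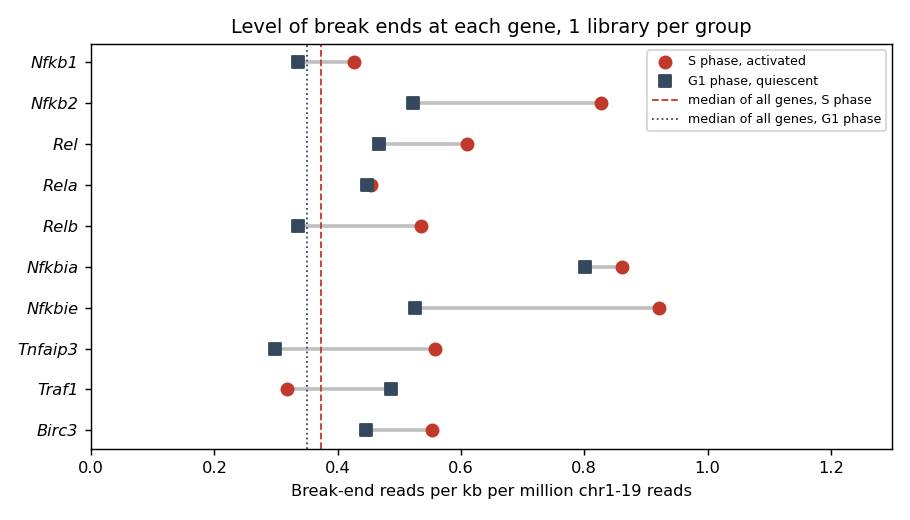
Level of break ends at each of the 10 genes in the S-phase library (circles) and the G1 library (squares), in reads per kb of the counted stretch per 1000000 reads on chromosomes 1 to 19. Dashed and dotted lines mark the medians of all genes, 0.373 in S phase against 0.350 in G1 phase. Traf1 is the only one of the 10 with the square to the right of the circle.

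Per length, most of the 10 levels in each library lay above the upper quartile of all genes, which was 0.460 in S phase against 0.439 in G1 phase. In S phase they ran from 0.318 reads per kb per 1000000 reads at Traf1 to 0.921 at Nfkbie, and in G1 phase from 0.298 at Tnfaip3 to 0.801 at Nfkbia. The median of all genes was 0.373 in S phase against 0.350 in G1 phase, and 9 of the 10 genes lay above it in S phase against 7 in G1 phase. The gene with the fewest ends per kb thus differed, Traf1 in the S-phase library and Tnfaip3 in the G1 library. Nfkbia was the highest of the 10 in G1 phase and the second highest in S phase.

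Ends gathered at the gene starts, and the sequences there are shown for 4 genes that span what was found. RefSeq promoter windows, from 250 bases before to 50 bases after a start on GRCm38.p6, matched 8 of the 10 genes with 11 starts. Nfkb1 and Relb were not matched and are left out of all counts at starts. Tnfaip3 had the highest ratio at its start, Nfkb2 the largest excess of ends at the start over the rest of the gene, Nfkbia the smallest excess in S phase among genes with reads there, and Traf1 no S-phase read at its start. Each sequence runs 5′ to 3′ along the gene, and capitals mark matches on either strand to the NF-kB motif, written as GGGA, any 4 bases and CC.
Tnfaip3, minus strand, chr10:19015361-19015660: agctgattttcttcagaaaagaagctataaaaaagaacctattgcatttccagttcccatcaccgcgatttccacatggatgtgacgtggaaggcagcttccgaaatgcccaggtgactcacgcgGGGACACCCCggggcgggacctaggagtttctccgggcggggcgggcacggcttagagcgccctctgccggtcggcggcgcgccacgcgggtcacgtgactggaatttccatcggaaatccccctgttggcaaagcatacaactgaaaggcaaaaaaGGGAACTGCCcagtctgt
Nfkb2, first of its 3 starts, plus strand, chr19:46304487-46304786: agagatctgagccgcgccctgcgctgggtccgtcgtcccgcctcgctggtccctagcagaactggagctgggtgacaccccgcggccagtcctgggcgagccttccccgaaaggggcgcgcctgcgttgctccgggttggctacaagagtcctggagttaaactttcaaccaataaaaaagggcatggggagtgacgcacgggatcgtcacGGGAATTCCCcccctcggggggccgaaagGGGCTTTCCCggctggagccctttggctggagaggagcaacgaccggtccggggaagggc
Nfkbia, minus strand, chr12:55492598-55492897: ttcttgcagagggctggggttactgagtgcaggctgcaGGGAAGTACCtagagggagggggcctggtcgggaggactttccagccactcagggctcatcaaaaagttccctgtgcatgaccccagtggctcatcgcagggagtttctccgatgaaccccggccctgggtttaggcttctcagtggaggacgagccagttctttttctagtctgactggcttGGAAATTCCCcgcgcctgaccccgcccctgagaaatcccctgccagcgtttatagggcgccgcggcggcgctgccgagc
Traf1, minus strand, chr2:34961723-34962022: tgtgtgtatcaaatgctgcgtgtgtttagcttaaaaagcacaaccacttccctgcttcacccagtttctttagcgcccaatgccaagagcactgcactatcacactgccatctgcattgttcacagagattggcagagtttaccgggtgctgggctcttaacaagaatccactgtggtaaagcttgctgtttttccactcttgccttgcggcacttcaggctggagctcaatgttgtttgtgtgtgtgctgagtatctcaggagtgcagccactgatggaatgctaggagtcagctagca
The printed Tnfaip3 window held 36 reads on 12 positions in S phase against 4 reads on 1 position in G1 phase. The printed Nfkb2 window held 64 reads on 16 positions in S phase against 22 reads on 6 positions in G1 phase. At Nfkbia the numbers were 11 reads on 5 positions in S phase against 15 reads on 6 positions in G1 phase, and at Traf1 0 reads in S phase against 2 reads on 1 position in G1 phase. The windows also differ in base composition, with 22 CpG and 56.7% G or C at Tnfaip3, 25 and 65.7% at Nfkb2, 15 and 61.0% at Nfkbia, and 4 and 48.7% at Traf1, where the median of 32851 promoter windows is 7 and 52.7%. The part of base composition in the counts was not tested.

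The motif was present in 9 of the 11 windows, those of 6 of the 8 genes, against 20.7% of all 32851 windows. Windows of Traf1 and Nfkbie held no match to these letters. Beginning 39 bases before its first listed start Nfkb2 has the match GGGAATTCCC, which reads as a match on both strands. Beginning 10 bases before that start it has the match GGGCTTTCCC on the opposite strand. Its other 2 windows overlap and share the match GGGACTTTCC. Rel has GGGAAATCCC beginning 92 bases before the start, Tnfaip3 has GGGACACCCC beginning 125 bases before it, and Nfkbia has GGAAATTCCC beginning 29 bases before it, on the opposite strand. A match to these letters is a description of the sequence and not a binding site.

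Among the subunits, 2 of 5 had a ratio of at least 1.5 and none was lower. Relb, the partner of the Nfkb2 product in the non-canonical pathway (chromosome 7, 19606217 to 19629438), had 299 reads in S phase against 246 in G1 phase, a ratio of 1.59 (1.34 to 1.89). By positions it had 91 in S phase against 56 in G1 phase, a ratio of 1.545 (1.095 to 2.195), so that it was higher on both measures. Its ends gathered at the right end of the annotated gene, where 3 neighbouring bins of 500 bp were peaks in both libraries. A peak here is a bin with 20 reads or more, unscaled, that reaches 5 times the gene's own median bin. The bin at 19629217 to 19629716 held 45 reads in S phase against 26 in G1 phase, of which 43 and 23 were on the plus strand. The counted stretch also takes in part of the neighbouring gene Clasrp, and without flanks the ratio of Relb was 1.46.

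Nfkb2, whose precursor protein is cut in the non-canonical pathway (chromosome 19, 46300994 to 46312400), had 262 reads in S phase against 216 in G1 phase, a ratio of 1.59 (1.32 to 1.91). By positions it had 83 in S phase against 55 in G1 phase, 1.435 (1.01 to 2.055). The plus strand had 157 reads in S phase against 104 in G1 phase, or 1.975 (1.53 to 2.555), and the minus strand 105 in S phase against 112 in G1 phase, 1.23 (0.932 to 1.62). These intervals overlap. Its starts held most of its reads, 63.0% in S phase against 50.9% in G1 phase, on 14.2% of the counted length. The bin at its first listed start, 46304494 to 46304993, had 58 reads in S phase against 19 in G1 phase. That start lies inside the annotated gene, whose left end has no listed start and counts with the rest.

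The largest of the genes, Nfkb1, encodes the precursor of the other processed subunit (chromosome 3, 135584655 to 135691969). It had 977 reads in S phase against 1003 in G1 phase, or 1.275 (1.17 to 1.39), and 347 positions in S phase against 236 in G1 phase, 1.40 (1.18 to 1.66). On unscaled reads it had 0 peak bins in S phase against 2 in G1 phase, and no bin held more than 17 reads in S phase or 28 in G1 phase. Rel, the subunit c-Rel of lymphoid cells (chromosome 11, 23736847 to 23770969), had 478 reads in both the S-phase and the G1 library, which after scaling is a ratio of 1.31 (1.15 to 1.49). Its positions, 157 in S phase against 120 in G1 phase, gave 1.24 (0.974 to 1.59), an interval that holds 1. Rela, the activating subunit of the canonical pathway (chromosome 19, 5637442 to 5648134), had 137 reads in S phase against 177 in G1 phase, 1.01 (0.805 to 1.27). Its strands went opposite ways, at 1.565 (1.099 to 2.24) on the plus strand and 0.723 (0.524 to 0.989) on the minus strand. By positions Rela stood at 1.15 (0.733 to 1.80), and a difference was not detectable at this depth.

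The 2 inhibitor genes stood at different ratios. Nfkbia, which encodes IkB alpha, an inhibitor that NF-kB itself makes cells resynthesise (chromosome 12, 55489409 to 55492647), had 128 reads on 46 positions in S phase against 156 reads on 40 positions in G1 phase. Its ratio was 1.07 (0.843 to 1.37) by reads and 1.09 (0.700 to 1.71) by positions, and both intervals hold 1. Without the 2 kb flanks, which are longer together than the gene, Nfkbia had 93 reads in S phase against 76 in G1 phase, or 1.60 (1.17 to 2.20), which passes the limit of 1.5. Its S-phase peaks lay inside the gene and changed strand from one bin to the next. The bin at 55491409 to 55491908 had 29 reads in S phase, 25 of them on the minus strand, and 13 in G1 phase, 11 on the minus strand. The next bin, 55491909 to 55492408, had 35 reads in S phase, 29 of them on the plus strand, and 38 in G1 phase, 24 on the plus strand.

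Nfkbie, which encodes IkB epsilon, an inhibitor of c-Rel and RelA dimers in B cells (chromosome 17, 45555700 to 45563169), had 217 reads on 72 positions in S phase against 162 reads on 35 positions in G1 phase. Its ratio was 1.75 (1.42 to 2.16) by reads and 1.96 (1.29 to 3.02) by positions. The excess was not confined to the start, since the rest of the counted stretch stood at 1.76 (1.38 to 2.25). The bin just before the start, 45555200 to 45555699, was the highest in both libraries, with 49 reads in S phase against 43 in G1 phase. Without the 2 kb flanks, of which 1 reaches into the transporter gene Slc35b2, the ratio was 1.44 (1.05 to 1.96).

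The feedback genes held both extremes of the group. Tnfaip3, which encodes a ubiquitin-editing enzyme that switches NF-kB signalling off (chromosome 10, 19000910 to 19015410), had 212 reads on 67 positions in S phase against 148 reads on 33 positions in G1 phase. That gave 1.875 (1.51 to 2.33) by reads and 1.93 (1.25 to 3.02) by positions, the highest ratio of reads of the 10 genes. Much of the difference sat at its first start, where the 1001 bases around it held 55 reads in S phase against 10 in G1 phase. At its second start the numbers were 13 in S phase against 7 in G1 phase. Counted together, the 2 starts stood at 5.24 (3.04 to 9.505) by reads, from 68 in S phase against 17 in G1 phase, and at 5.23 (1.78 to 20.9) by positions, from 22 in S phase against 4 in G1 phase. The rest of the gene stood at 1.44 (1.13 to 1.84) by reads and at 1.475 (0.905 to 2.44) by positions. Counted without flanks, and so without the stretch upstream of the start, Tnfaip3 had a ratio of 1.44 (1.12 to 1.85).

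The strands contributed alike at the first start of Tnfaip3, with 29 plus-strand and 26 minus-strand reads in S phase against 5 and 5 in G1 phase. The bin at 19015410 to 19015909, which begins at the start and lies upstream of it, had 48 reads on 14 positions in S phase against 4 reads on 1 position in G1 phase. It was the highest S-phase bin of the gene, so its ratio of 15.7 (5.75 to 60.0) includes that choice. In the G1 library the highest bin of Tnfaip3 was another one, 19006910 to 19007409, with 2 reads in S phase against 20 in G1 phase, all 20 on the minus strand and on 3 positions.

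Traf1, an adaptor gene of the TNF receptor family that CD40 induces (chromosome 2, 34941750 to 34961812), had 157 reads in S phase against 315 in G1 phase, a ratio of 0.652 (0.535 to 0.7925). By positions it had 67 in S phase against 75 in G1 phase, a ratio of 0.849 (0.602 to 1.20), so the interval then holds 1. It had 2.34 reads per position in S phase against 4.20 in G1 phase. The other members ran from 2.78 to 3.29 in S phase, and only 8.07% of the 16465 genes of like read number were at or below Traf1 there, while in G1 phase 62.2% were. The ratio no longer passed 1/1.5 without the position with the most reads, at 0.676, or with 5 kb flanks, at 0.795 (0.674 to 0.937). The gene had no peak bin in either library, and its median bin held 2 reads in S phase against 5 in G1 phase. The 1001 bases around its start held 0 reads in S phase against 14 reads on 4 positions in G1 phase, at least 3.565-fold lower in S phase if 3 reads are taken as the limit of a count of 0. That bound leaves out the counting error of the G1 reads, and the exact interval of the ratio reaches up to 0.395. By positions the interval reaches up to 1.44 and holds 1.

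Birc3, which encodes a ubiquitin ligase of the inhibitor of apoptosis family that acts with TRAF adaptors (chromosome 9, 7847468 to 7873205), lay between these. It had 338 reads in S phase against 356 in G1 phase, 1.24 (1.07 to 1.45), and 115 positions in S phase against 95 in G1 phase, 1.15 (0.869 to 1.53). At its start it had 41 reads in S phase against 28 in G1 phase, or 1.92 (1.16 to 3.22), and over the rest 1.185 (1.01 to 1.39). By positions the start had 14 in S phase against 6 in G1 phase, with an interval of 0.801 to 7.04 that holds 1.

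**Figure D2:**
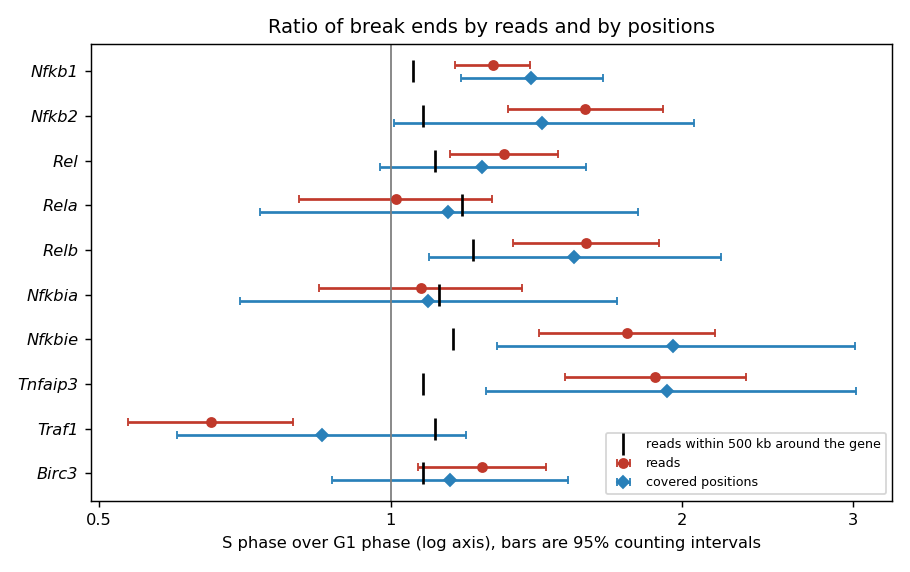
Ratio of S phase over G1 phase for each gene by reads (circles) and by covered positions (diamonds), on a log axis with 95% intervals of counting error, and the ratio of reads in the 500 kb on each side (black ticks). The intervals of Tnfaip3, Nfkbie, Relb, Nfkb2 and Nfkb1 lie above 1 on both measures, and that of Traf1 lies below 1 by reads only.

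**Figure D3:**
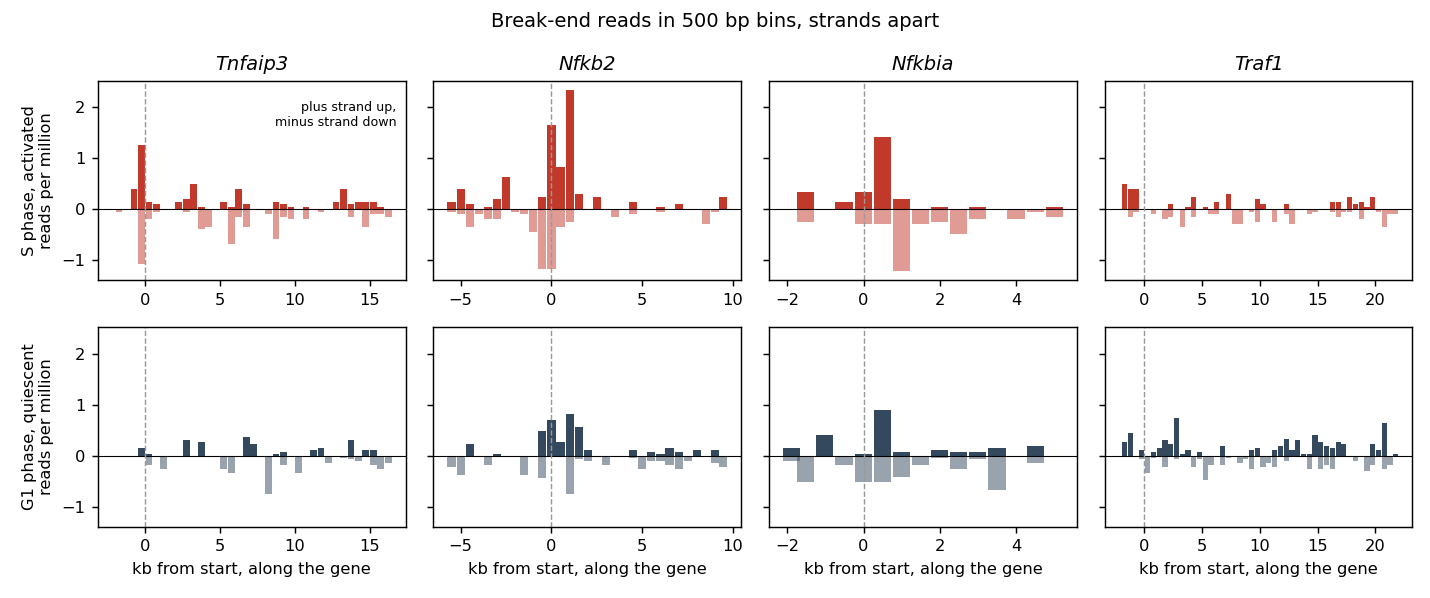
Reads in 500 bp bins along Tnfaip3, Nfkb2, Nfkbia and Traf1, scaled per 1000000 reads on chromosomes 1 to 19, with the S-phase library in the upper row and the G1 library in the lower. Plus-strand reads of the genome point up and minus-strand reads down, and distance runs along the gene from its first listed start. Tnfaip3 shows a column at the start in S phase (48 reads) that the G1 library lacks (4 reads), and Traf1 shows none in either.

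The gathering of ends at starts was seen within each library. Inside 1 library it does not use the ratio itself. The reads at the starts of Tnfaip3 and Traf1 were still part of the values by which the genes were chosen. The S-phase and G1 values set side by side are not independent of that choice, because Tnfaip3 and Traf1 are among the 8 genes. Medians without these genes are not given. Per base, the start windows of 500 bases on each side held a median of 3.84 times the positions of the rest of the gene in S phase against 2.21 times in G1 phase over the 8 genes. Over 24980 genes the medians were 1.295 in S phase against 1.18 in G1 phase. At least 2 times as many positions per base were found at 6 of the 8 genes in S phase against 4 of 8 in G1 phase, compared with 33.4% and 28.8% of all genes. Nfkb2 led in both libraries, at 7.13 in S phase against 4.66 in G1 phase. Nfkbia had little excess in either, at 1.31 in S phase against 1.81 in G1 phase. Tnfaip3 stood at 4.03 in S phase against 1.14 in G1 phase.

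Summed over the 8 genes, the start windows held 430 reads in S phase against 306 in G1 phase, or 1.84 (1.585 to 2.14). The rest of the genes held 1499 in S phase against 1702 in G1 phase, or 1.15 (1.075 to 1.24). By positions the ratios were 1.79 (1.33 to 2.43) at starts, from 132 in S phase against 70 in G1 phase, and 1.18 (1.03 to 1.34) over the rest. Without Tnfaip3 and Traf1 they were 1.72 (1.47 to 2.02) by reads at starts and 1.235 (1.14 to 1.34) over the rest. Summed over all genes with a start the ratio was also higher there, with 1.44 (1.43 to 1.44) at the starts of 27025 genes and 1.03 (1.03 to 1.03) over their rest. Among the members Nfkbia, Nfkbie and Traf1 had no higher ratio of reads at the start than over the rest, and the others had. Of the 7 member genes with at least 20 reads at their starts in a library, 1, Tnfaip3, had a ratio of at least 2 there and 0 a ratio of at most 1/2, against 29.0% and 11.9% of 10371 genes.

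**Figure D4:**
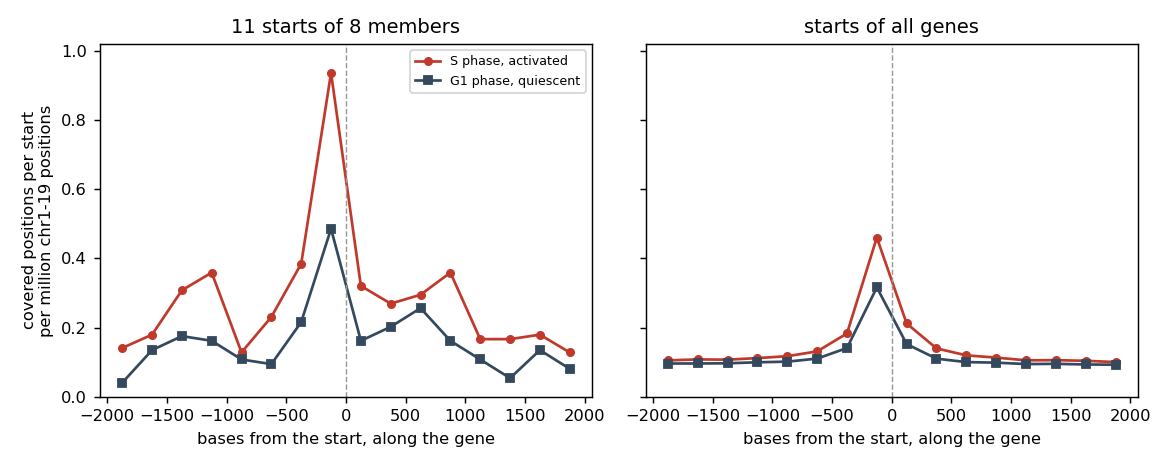
Covered positions in 250 base bins around starts, per start and per 1000000 positions on chromosomes 1 to 19, for the 11 starts of 8 members (left) and 32851 starts of all genes (right), with S phase as circles and G1 phase as squares. The highest bin is the 250 bases before the start in every curve, at 0.936 in S phase against 0.486 in G1 phase for the members and 0.460 in S phase against 0.316 in G1 phase for all genes. The 3 starts of Nfkb2 lie close together, and their ends are counted more than once.

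The strands of ends around the starts are given without intervals, because positions near the close starts of Nfkb2 enter more than once, in part both after one start and before another. Over the 1000 bases after a start, 61.9% of 97 such counts in S phase against 63.8% of 58 in G1 phase were on the strand of the gene. Over the 1000 bases before it the shares were 48.9% of 131 in S phase against 50.7% of 67 in G1 phase. For all genes they were 55.7% in S phase against 55.25% in G1 phase after the start, and 45.8% in S phase against 46.4% in G1 phase before it. Over whole genes the strands were balanced, with 49.6% (47.8 to 51.3) of the members' reads on the plus strand in S phase against 49.1% (47.3 to 50.8) in G1 phase. Single genes departed from this by reads, such as Rela with 53.3% in S phase against 34.5% (27.5 to 42.0) in G1 phase. By positions the interval of every one of the 10 genes in both libraries held 50%, Nfkb2 included (55.4% in S phase against 49.1% in G1 phase).

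Single stacks of reads were a small part of each gene. The highest position held at most 8.59% of a gene's reads in S phase (Nfkbia, 11 reads) and at most 7.41% in G1 phase (Nfkbie, 12 reads). The largest stack of all, 23 reads at Relb in S phase, made up 7.69% of its reads. Without that position the ratio of Relb was 1.48 (1.24 to 1.77), which no longer passes 1.5. In all, 16 of 601 bins were peaks in S phase against 19 in G1 phase, of which 9 were peaks in both.

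The surroundings of the genes were also higher in S phase, but less so than most of the genes. Within 500 kb on each side, outside the counted stretch, the reads around all 10 genes gave a ratio of 1.117 (1.107 to 1.127), from 1.055 around Nfkb1 to 1.22 around Relb. Divided by its surroundings, Tnfaip3 stood at 1.74, Nfkbie at 1.51, Nfkb2 at 1.47 and Relb at 1.31. Nfkbia at 0.958 and Rela at 0.854 were below their surroundings, as was Traf1 at 0.587. These quotients carry no interval.

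Other genes of the pathway lay on both sides of 1. Of 62 such genes, listed by role, 9 had a ratio of at least 1.5 and 3 of at most 1/1.5, where the same limits called 13.0% and 8.85% of all genes and 11.5% and 4.18% of protein-coding genes. Their median log2 ratio was 0.21. The 11 receptor and TRAF adaptor genes had a median of 0.32 with 1 higher and 0 lower. The 5 other IkB genes had 0.39 with 1 and 0, the 13 genes of ubiquitin editing 0.12 with 3 and 0, and the 20 target genes 0.09 with 3 and 3. The lists were written with earlier results of these libraries known.

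The highest of these genes was Rbck1, a subunit of the linear ubiquitin ligase, with 300 reads in S phase against 203 in G1 phase, 1.93 (1.61 to 2.32). Nfkbid, an atypical nuclear IkB gene, had 114 in S phase against 80 in G1 phase, 1.865 (1.39 to 2.51). Tradd, an adaptor of TNF receptors, stood at 1.83 (1.29 to 2.61) and the chemokine gene Ccl22 at 1.81 (1.26 to 2.61). By positions Rbck1, Nfkbid and Tradd kept an interval above 1, and Ccl22, with 0.828 to 3.05, did not. Lowest were the cytokine gene Tnf, with 45 reads in S phase against 140 in G1 phase, 0.421 (0.294 to 0.5925), and the survival gene Bcl2a1a, with 62 in S phase against 146 in G1 phase, 0.556 (0.406 to 0.753). Lta at 0.614 (0.423 to 0.881) overlaps Tnf in its counted stretch and shares reads with it, and Bcl2a1a has near-identical copies between which reads can be split. Tnip2, whose protein binds the Tnfaip3 product, stood at 0.764 (0.633 to 0.921). By positions the interval of Tnf, 0.283 to 0.982, stayed below 1, and those of Bcl2a1a, Lta and Tnip2 held 1. Cd40 itself had 185 reads in S phase against 202 in G1 phase, a ratio of 1.20 (0.977 to 1.47), below the 1.26 of its surroundings.

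**Figure D5:**
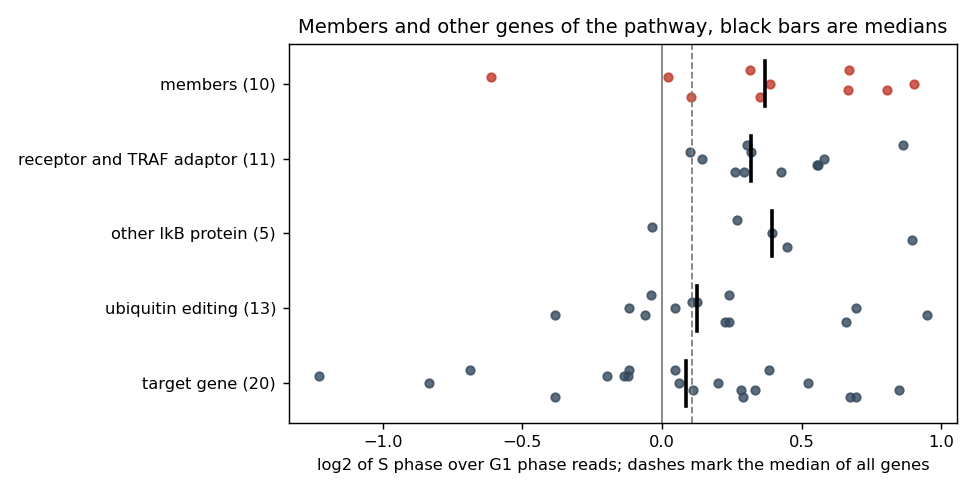
Log2 ratio of S phase over G1 phase, with a pseudocount of 1 read, for the 10 members and for the other genes of the pathway in the roles reported here (points), with the median of each row (black bars) and of all genes (dashed line, 0.11). Target genes span the widest range, from -1.23 at Tnf to 0.85 at Ccl22.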

How the data were processed

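END-seq libraries of 1 S-phase and 1 G1-phase sample were used, grouped by their titles. The authors deposited 1 bedGraph track per library and strand whose values are, per the file headers and the values themselves, raw counts of read ends at each base, in whole numbers. Per the submitters' processing notes the tools were Bowtie 1.1.2, SAMtools 1.11 and bedtools, on mm10. Settings, and how duplicates and multiply matching reads were treated, were not given in the sources used here. Tracks were expanded to single bases and summed with Python 3.11.15, numpy 2.4.6, pandas 2.3.3 and scipy 1.17.1, and plotted with matplotlib 3.10.9. Gene coordinates and promoter windows are RefSeq's on GRCm38.p6, the assembly that mm10 represents, and no exon table was used, so positions are given without exons or introns.

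Reads were counted per gene with 2 kb flanks, with a pseudocount of 1 for log2 ratios only, and scaled to 20543572 (S phase) and 26889564 (G1 phase) reads on chromosomes 1 to 19. Positions were scaled likewise. At this depth a count of 0 allows up to 0.146 reads per 1000000 in S phase and 0.112 in G1 phase, the level of 3 reads. Shares carry exact Clopper-Pearson intervals. With 1 library per group no test was made. A call needs a ratio of 1.5 or more, or 1/1.5 or less, and 50 or more reads in a library, and all 10 members passed that filter. The counting and call step was tested on simulated data.

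The members and lists were chosen with earlier results of these data known. The text names all 10 members, their highest and peak bins, the 4 highest and 4 lowest other pathway genes, and Cd40, named after its value was seen. Values of 1 role among the pathway genes are not reported here. The counts of start windows with a ratio of 2 and the analysis without Tnfaip3 and Traf1 were added after the data were seen. Alternatives covered scaling, flanks, positions, stacks, strands, thresholds and window widths.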

Additional observations from a re-analysis of the deposited data

How the results depend on the processing

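Under other settings 69 values stayed within their interval, or within 1.5 times for a count, and 19 moved further. Most of the 19 are counts of genes, which have no direction to turn. The median log2 ratios and the ratios of the surroundings among them kept their direction. The number of members called higher, 4, became 2 when scaled to the median gene (Tnfaip3 and Nfkbie), 2 without flanks (Nfkb2, and Nfkbia at 1.60, which is not among the 4), 2 with 5 kb flanks (Nfkb2 and Relb), and 0 at a fold of 2. The 1 member called lower, Traf1, became 0 with 5 kb flanks, 0 with each position counted once and 0 on the minus strand alone. That number was also 0 without the position with the most reads and 0 at a fold of 2. The 1 read interval below 1, also Traf1, became 0 with each position counted once. Without Tnfaip3 and Traf1, a setting added after the data were seen, both numbers are 0 of necessity, because Traf1 itself is left out. The median log2 ratio of 0.37 became 0.28 scaled to the median gene, 0.49 without flanks and 0.54 on the plus strand alone. The 9 pathway genes called higher became 18 on the minus strand alone and 0 at a fold of 2. The 3 called lower became 1 with each position counted once and 1 at a fold of 2. The ratio of the surroundings, 1.12, was 1.14 within 100 kb and 1.099 within 1 Mb. Scaled to the median gene Nfkb2 and Relb stood at 1.49 each and Rela at 0.951, below 1. Without the position with the most reads Rela stood at 0.954 and Nfkbia at 0.982, also below 1. At starts the ratio ran from 1.73 (scaled to the median gene) to 1.95 (250 bases). Without flanks Tnfaip3 stood at 1.44 (1.12 to 1.85), and with 5 kb flanks at 1.40 (1.17 to 1.67). Traf1 stood at 0.583 (0.464 to 0.730) without flanks and 0.795 (0.674 to 0.937) with 5 kb flanks. The cause of these changes was not tested. No paired analysis was possible because each group holds 1 library. Start windows of single genes hold few positions, between 0 and 45 in the S-phase library against 4 to 24 in G1, and their ratios are the least precise values given.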
